A study of Mus musculus with 47 samples.

Results

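Among the leukaemic spleens of 47 mice, 25 had little RNA of 2 lymphoid genes, and these 25 were divided here by how much Erg RNA they held. The spleens were selected on measured values: both Vpreb1, a surrogate light chain gene of B cell precursors, and Cd3d, a subunit of the T cell receptor complex, had to be at or below 7 on the log2 scale of the array. Of the 25, 15 had Erg above 7 (called Erg-high) and 10 had it at or below 7 (called Erg-low). The other 22 spleens had Vpreb1 or Cd3d above 7, and 2 of them also had Erg above 7, so that 17 of 47 spleens did in all. The division follows RNA and not the label that records a transposon insertion in Erg, and it was drawn with earlier results of these arrays known.

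Each spleen came from 1 mouse and was measured once, on an Affymetrix whole-genome mouse array, after freezing at necropsy. Every mouse of both sides carried the same 3 engineered elements. These were Tg(ACTB-cre)2Mrt, a Cre transgene under the ACTB promoter, Gt(ROSA)26Sortm2(sb11)Njen, a Sleeping Beauty transposase allele, and the transposon array TgTn(sb-T2/Onc2) of line 6070Njen or 6113Njen. A mobilised transposon lands at many places, so each leukaemia is its own event and no 2 spleens are repeats of 1 tumour. All carried the diagnosis of undifferentiated myeloid leukaemia at the terminal stage, and no healthy spleen is compared here. The age label averaged 64.4 ± 14.5 (SD, n = 15) in Erg-high and 65.3 ± 18.0 (n = 10) in Erg-low mice, in a unit the labels do not give (permutation p = 0.898).

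Erg encodes a transcription factor of the ETS family, whose members bind DNA around a GGAA core. It maintains blood stem cells, acts in megakaryocyte and endothelial cell development, and causes leukaemia in mice when it is expressed too highly. Ets1, another member of the family, is best known from lymphocytes. Gata2, Tal1, Lyl1, Lmo2, Runx1, Fli1 and Gfi1b form with Erg a group of factors that bind many of the same sites in blood progenitor cells.

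The insertion, line, sex and age labels did not differ detectably between the sides. An Erg insertion label was carried by 11 of 15 Erg-high and 5 of 10 Erg-low mice (two-sided Fisher's exact test, p = 0.397), line 6070 by 10 of 15 and 6 of 10 (p = 1), and the female label by 8 of 15 and 6 of 10 (p = 1). After adjustment over these 3 and age, every p was 1. Xist matched the labelled sex in 11 of the 25 arrays and went against it in 14, so which array belongs to which label is in doubt. The sides themselves do not rest on the labels. RNA quality, read as control probe sets near the 3′ end minus those near the 5′ end, was 1.40 ± 0.32 in Erg-high and 1.49 ± 0.49 in Erg-low spleens (permutation p = 0.613). Among the 25, 4 arrays (1 Erg-high and 3 Erg-low) had a median correlation with the others under 0.97.

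The values that chose the spleens are given as a description. Erg, by the brighter of its 2 probe sets, had a lowest, median and highest value of 7.05, 7.497 and 8.28 in Erg-high spleens, against 5.08, 5.71 and 6.96 in Erg-low spleens. The Erg-low side held 6 spleens at or below 5.75 and 4 between 6.59 and 6.96, so it was not uniform. Next to the dividing line, the lowest Erg-high values were 7.05 and 7.30 and the highest Erg-low values 6.96 and 6.86. The dimmer Erg probe set ran from 5.56 to 6.18 (median 5.79) in Erg-high and from 5.04 to 5.58 (median 5.23) in Erg-low spleens. Vpreb1 had medians of 5.39 and 5.33 and Cd3d of 5.36 and 5.57 in Erg-high and Erg-low spleens, with no value above 6.79.

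Outside Erg and those 2 lymphoid genes, 18175 genes were compared between the sides with limma, with p-values adjusted by the Benjamini-Hochberg method and a threshold of 0.05. The test passed 387 genes (2.13% of those tested), of which 219 were higher (1.2%) and 168 lower (0.924%) in Erg-high spleens. Before adjustment, 1601 genes (8.81%) were higher and 1084 (5.96%) lower at p under 0.05. Most differences were small: 221 of the 387 were under 0.3 log2 units and 325 under 0.5, while 4 higher and 6 lower genes reached 1. In 139 of them both means were below 6, near the floor of the array, where log2 differences understate a change in RNA. Samples were spleens with all their cells, so fewer cells of a type and less RNA per cell cannot be told apart.

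How many genes passed depended on single spleens and on where Erg was divided. With the division at 7.5 (7 against 18 spleens) 0 genes passed by limma and 1086 had an unadjusted p under 0.05, while 385 of the 387 kept their direction. Leaving out replicate 21 of the spleens without an insertion label, whose Erg was 6.86, gave 400 higher and 349 lower. Counts fell to 102 higher without replicate 8 of the same label group, and to 111 lower without its replicate 20. In the group with an insertion label they fell to 144 and 92 without replicate 1, to 139 and 111 without replicate 17, and to 121 higher without replicate 21. Between 214 and 385 of the 387 genes passed again when 1 spleen was left out.

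**Figure D1:**
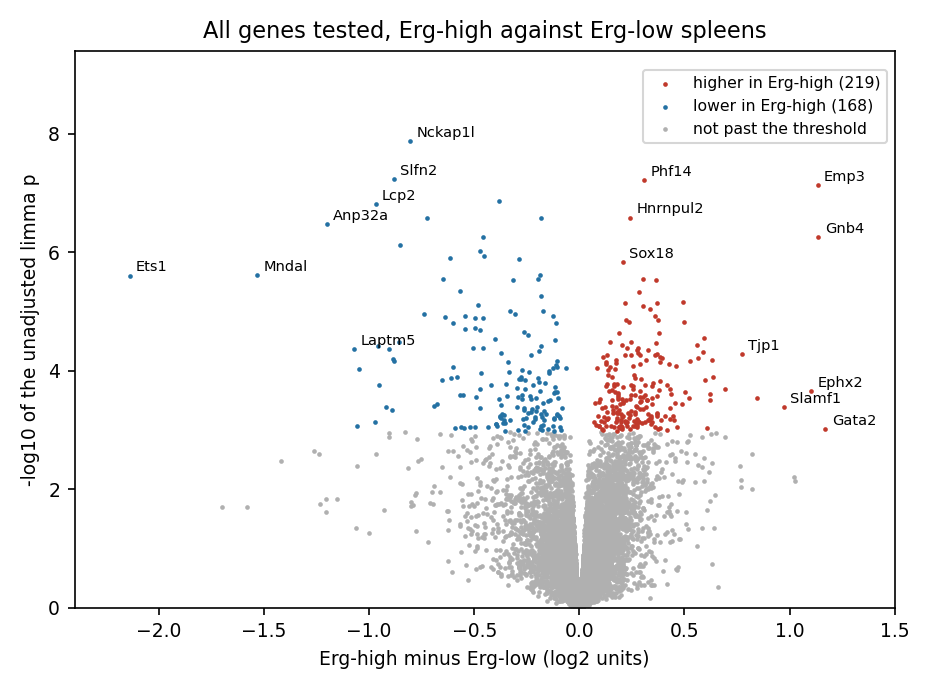
Each point is 1 of 18175 genes, with the Erg-high minus Erg-low difference (log2 units) on the x axis and -log10 of the unadjusted limma p on the y axis; red genes were higher, blue genes lower and grey genes did not pass. Ets1 lies farthest to the left at -2.14, and Emp3, Gnb4 and Gata2 farthest to the right among genes that passed.

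Ets1 had the largest difference of all genes that passed, and it ran opposite to Erg. It was 6.11, 6.60 and 7.88 (lowest, median, highest) in Erg-high spleens, against 6.42, 9.42 and 9.84 in Erg-low spleens. Ets1 exceeded 7 in 4 of 15 Erg-high and 8 of 10 Erg-low spleens, and in 22 of the 22 spleens with lymphoid genes. Its log2 difference was -2.14 ± 0.35 (SE, limma adjusted p = 0.00207), which is 4.40-fold lower in Erg-high spleens. Ets1 was already known to differ when the comparison was drawn, so this is a description as much as a test. The sides overlapped through 2 Erg-low spleens with Ets1 at 6.42 and 6.71, whose Erg was 6.68 and 6.86. The 6 spleens with the least Erg had Ets1 between 9.27 and 9.84.

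**Figure D2:**
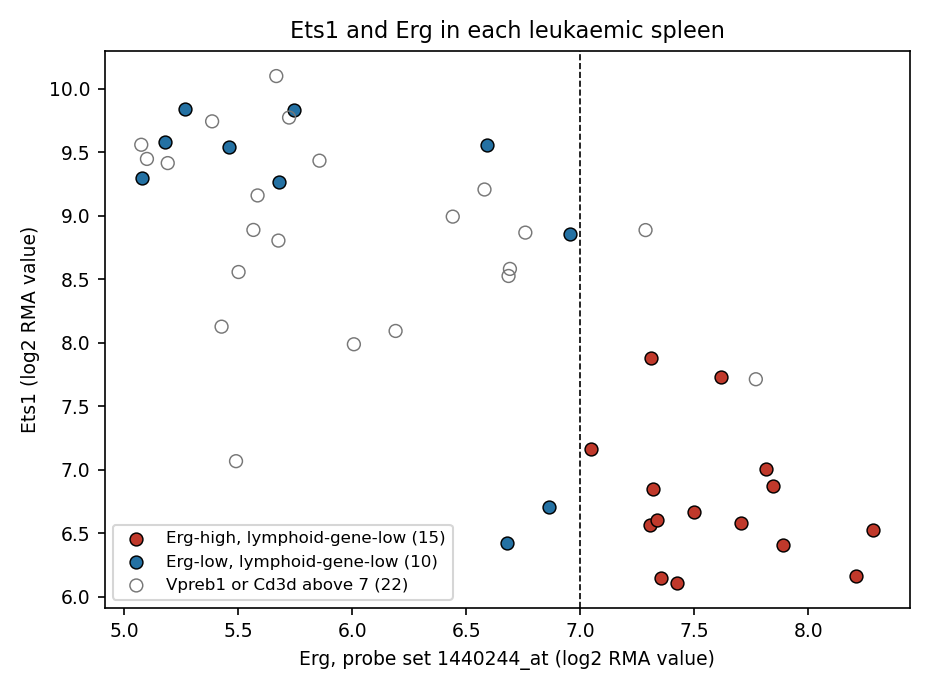
Each point is 1 spleen, with Erg on the x axis and Ets1 on the y axis (log2 RMA values); red points are 15 Erg-high and blue points 10 Erg-low spleens, open circles are the 22 with Vpreb1 or Cd3d above 7, and the dashed line marks Erg at 7. Erg-high spleens have Ets1 between 6.11 and 7.88, and 8 of 10 Erg-low spleens lie between 8.85 and 9.84.

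Of 23 ETS family members tested, 2 passed, Ets1 and Gabpa, where 2.13% of all genes did. Counts of 1 or 2 calls in lists of this size are given as counts only. Gabpa, the DNA-binding subunit of the GABP factor, was 7.28, 7.46 and 7.63 in Erg-high and 6.77, 7.29 and 7.41 in Erg-low spleens. The 2 sides overlapped, and the difference was 0.24 ± 0.06 (limma adjusted p = 0.0264), with the call lost in 2 of the fits that left out 1 spleen. Fli1, the family member closest to Erg, was 5.45, 5.67 and 8.21 in Erg-high and 5.63, 6.52 and 8.54 in Erg-low spleens. Fli1 did not pass (-0.56 ± 0.35, adjusted p = 0.493), and it was above 7 in 2 spleens of each side. The family's median difference was -0.010, beside 0.0021 over all genes tested.

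Among the stem cell transcription factors, Gata2 alone of 24 tested passed, and its call was not stable. Gata2 was 6.13, 7.73 and 8.61 in Erg-high and 5.69, 6.24 and 8.50 in Erg-low spleens. The sides overlapped over most of their range, although 12 of 15 Erg-high and 2 of 10 Erg-low spleens exceeded 7. The difference of 1.17 ± 0.31 (limma adjusted p = 0.0469) is 2.25-fold, and it missed the threshold in 32 of 48 alternatives, 20 of them with 1 spleen left out. Of the other factors of the group that binds with Erg in progenitors, Fli1, Tal1, Lyl1, Runx1, Gfi1b and Lmo2 did not pass. Tal1 was at -0.14 ± 0.17 (adjusted p = 0.783), Lyl1 at -0.17 ± 0.14 (0.636), Runx1 at 0.12 ± 0.11 (0.696) and Gfi1b at -0.12 ± 0.09 (0.570). Lmo2, a bridging protein of that complex, was bright on both sides, with medians of 9.77 in Erg-high and 9.64 in Erg-low spleens and a difference of 0.20 ± 0.08 (0.232). Meis1 and Hoxa9, which mark many immature leukaemias, had no value above 5.86 on either side. The list's median difference was -0.0066.

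Of 16 progenitor surface and signalling genes, Slamf1 passed. Slamf1 encodes CD150, a receptor used to isolate blood stem cells, and was 6.47, 7.33 and 8.44 in Erg-high and 5.65, 6.23 and 7.94 in Erg-low spleens. It exceeded 7 in 11 of 15 Erg-high and 1 of 10 Erg-low spleens, the last being at 7.94 in a spleen with Erg at 6.68. The difference was 0.97 ± 0.24 (limma adjusted p = 0.0317), lost in 10 of 48 alternatives, 7 of them with 1 spleen left out. The stem cell factor receptor Kit did not pass (0.23 ± 0.13, adjusted p = 0.462). The embryonic Ras relative Eras was above 7 in 6 of 15 Erg-high and 2 of 10 Erg-low spleens and in 0 of the other 22, and did not pass (0.66 ± 0.86, adjusted p = 0.803).

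Emp3 and Gnb4 had the smallest adjusted p among the 12 largest increases. Emp3, a small membrane protein, was 8.15, 8.41 and 8.77 in Erg-high and 6.57, 7.22 and 8.16 in Erg-low spleens, so that the sides overlapped by 1 Erg-low spleen. The difference of 1.13 ± 0.15 (limma adjusted p = 0.000336) is 2.19-fold. Gnb4, a beta subunit of heterotrimeric G proteins, was 7.12, 7.55 and 8.04 in Erg-high and 5.54, 6.40 and 7.28 in Erg-low spleens (1.14 ± 0.17, adjusted p = 0.000849). Each was lost in 1 of 48 alternatives, the division at 7.5. Both also ran with Erg inside the Erg-low side: Emp3 had a median of 6.98 and Gnb4 of 6.02 in the 6 spleens with Erg at or below 6, and 7.85 and 7.09 in the 4 between 6 and 7. Those subsets were drawn after the values were seen and were not tested.

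The other 8 of the 12 largest increases spanned 0.62 to 1.10 log2 units. Ephx2, a soluble epoxide hydrolase, differed by 1.10 ± 0.25 (limma adjusted p = 0.0234) and Hacd1, which takes part in making very long fatty acids, by 0.84 ± 0.20 (0.0264). Tjp1, the tight junction protein ZO-1, was 7.61, 8.06 and 8.41 in Erg-high and 5.93, 7.42 and 8.04 in Erg-low spleens, with overlap (0.77 ± 0.16, adjusted p = 0.0111). Signalling genes among them were the adenylyl cyclase Adcy7 (0.69 ± 0.16, adjusted p = 0.0226) and the G protein alpha subunit Gnaq (0.63 ± 0.13, 0.0126). Tmem14c, which moves porphyrin into mitochondria for haem synthesis, rose by 0.62 ± 0.15 (0.0268). Vamp5, a vesicle fusion protein, rose by 0.64 ± 0.14 (0.0179) and Tmem64 by 0.62 ± 0.15 (0.0249). With 1 spleen left out, the call was lost once for Ephx2 and in 2 fits each for Tmem64 and Tmem14c.

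Lcp2, Lat, Laptm5, Arrb2 and Atp2a3 stood among the 12 largest decreases. Lcp2, the adaptor SLP-76 that carries signals from immune receptors, was 5.63, 5.95 and 6.42 in Erg-high and 5.76, 7.15 and 7.31 in Erg-low spleens. One Erg-low spleen, at 5.76, lay inside the Erg-high range. Lcp2 differed by -0.97 ± 0.13 (limma adjusted p = 0.000468). Lat, an adaptor that works beside SLP-76, was 5.63, 6.51 and 8.05 in Erg-high and 6.80, 7.42 and 8.64 in Erg-low spleens, with overlap (-0.95 ± 0.22, adjusted p = 0.0208). Laptm5, a lysosomal membrane protein of blood cells, was 6.70, 7.58 and 8.75 in Erg-high and 7.15, 8.58 and 9.79 in Erg-low spleens (-1.07 ± 0.22, adjusted p = 0.0106). Arrb2, a beta-arrestin that quiets G protein-coupled receptors, differed by -0.96 ± 0.19 (0.0102). The calcium pump Atp2a3 (-0.97 ± 0.25, 0.0414) lost its call in 28 of 48 alternatives.

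Nckap1l and Slfn2 had the smallest p among the lower genes, and they were named, with Nckap1, Cyfip2, Gnai2 and Gnai3, after their values were seen. Nckap1l, the blood cell subunit of the WAVE complex that drives actin branching, was 5.53, 5.84 and 6.27 in Erg-high and 6.03, 6.74 and 6.96 in Erg-low spleens. Only the lowest Erg-low value fell within the Erg-high range, and the difference was -0.80 ± 0.10 (limma adjusted p = 0.000245). Nckap1, its relative in other tissues, went the other way, at 7.38, 7.597 and 8.02 in Erg-high and 6.29, 6.95 and 8.01 in Erg-low spleens (0.59 ± 0.12, adjusted p = 0.0110). Cyfip2, a further WAVE subunit, fell by 0.48 on the log2 scale (adjusted p = 0.00429). Its means, 5.46 in Erg-high and 5.94 in Erg-low spleens, were near the floor. Slfn2, needed for quiescence of immune cells, was 5.59, 5.90 and 6.33 in Erg-high and 5.97, 6.68 and 7.20 in Erg-low spleens (-0.88 ± 0.12, 0.000336). The G protein subunit Gnai2 was lower (-0.26 ± 0.07, 0.0442, lost in 28 of 48 alternatives) and Gnai3 higher (0.34 ± 0.06, 0.00477).

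One gene of the 18175 (0.0055%) had sides that did not overlap. Hnrnpul2, a nuclear RNA-binding protein, was 7.45, 7.61 and 7.74 in Erg-high and 7.14, 7.38 and 7.42 in Erg-low spleens. The gap was narrow and the difference 0.24 ± 0.03 (limma adjusted p = 0.000533). Phf14, a chromatin reader, came close, at 7.02, 7.18 and 7.38 in Erg-high and 6.67, 6.90 and 7.02 in Erg-low spleens (0.31 ± 0.04, adjusted p = 0.000336).

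**Figure D3:**
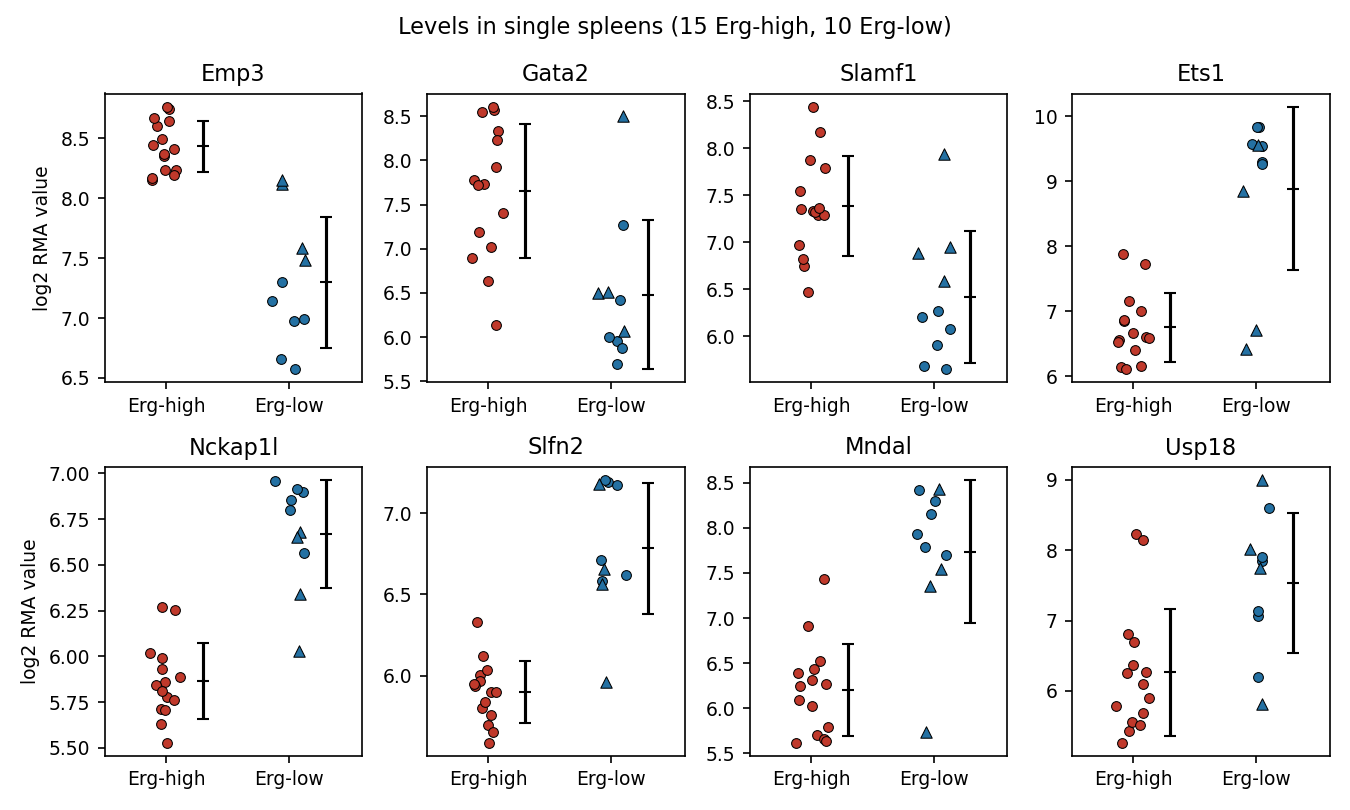
Each point is 1 spleen (log2 RMA value), red for 15 Erg-high and blue for 10 Erg-low spleens, triangles for the 4 Erg-low spleens with Erg between 6 and 7; the bar is the mean with its SD. Emp3, Gata2 and Slamf1 are higher and Ets1, Nckap1l, Slfn2 and Mndal lower in Erg-high spleens, while Usp18 did not pass the threshold.

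The interferon-stimulated list had the lowest median of the 23 lists, though few of its genes passed. Of 23 tested, 2 were lower, 0 were higher, and 23 had a negative difference; 15 were lower at an unadjusted p under 0.05. Over all genes tested, 0.924% were lower, 5.96% were lower before adjustment, and 8637 of 18175 had a negative difference. The list's median difference was -0.52, beside 0.0021 over all genes tested. Oas2, which makes the second messenger of RNase L, was 5.78, 6.01 and 7.66 in Erg-high and 6.42, 7.14 and 7.65 in Erg-low spleens (-0.91 ± 0.18, limma adjusted p = 0.0106). Cxcl10, a chemokine induced by interferon, fell by 0.39 on the log2 scale (adjusted p = 0.0447) and lost its call in 28 of 47 alternatives. Rsad2, the antiviral protein viperin, did not pass, at 6.83, 7.92 and 10.35 in Erg-high and 7.83, 10.14 and 10.83 in Erg-low spleens (-1.42 ± 0.44, 0.0913). Usp18, which removes ISG15 from proteins, did not pass either (-1.26 ± 0.37, 0.0740). The mean over the list ran from 5.92 to 7.63 (median 6.28) in Erg-high and from 6.21 to 7.67 (median 7.03) in Erg-low spleens, which overlap.

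Mndal and Igtp were also among the 12 largest decreases. Mndal, a member of the interferon-inducible IFI200 family, was 5.62, 6.24 and 7.43 in Erg-high and 5.74, 7.86 and 8.43 in Erg-low spleens (-1.53 ± 0.25, limma adjusted p = 0.00207). Near-identical family members can share its probes, so the value may mix them. Igtp, an interferon-inducible GTPase, was at -1.06 ± 0.28 (0.0447) and lost its call in 29 of 48 alternatives. Tap1 and Psmb8, which were not among the 12 and were named after their values were seen, serve antigen presentation by MHC class I. They were at -0.50 ± 0.13 and -0.52 ± 0.14 (both 0.0447) and lost theirs in 32 and 28. The rest of the 12 included Anp32a, an inhibitor of protein phosphatase 2A (-1.20 ± 0.17, 0.000612), Sfrp4, a secreted Wnt antagonist (-1.05 ± 0.23, 0.0145), and Gch1, which makes tetrahydrobiopterin (-0.92 ± 0.22, 0.0317). Gch1 lost its call in 10 of 48 alternatives, 7 of them with 1 spleen left out.

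The neutrophil, monocyte, erythroid and megakaryocyte lists had 0 genes past the threshold by limma. Neutrophil and granule genes had a negative difference in 22 of 23, a median of -0.19 and 10 unadjusted p-values under 0.05. Over all genes tested, 8637 of 18175 differences were negative and 5.96% of genes were lower at an unadjusted p under 0.05. S100a8, a calprotectin subunit, was 5.05, 5.82 and 8.65 in Erg-high and 5.21, 7.19 and 11.71 in Erg-low spleens (-1.70 ± 0.68, limma adjusted p = 0.218). The list mean ran from 5.27 to 5.99 in Erg-high and from 5.27 to 7.27 in Erg-low spleens, and its part in the other differences was not tested. Monocyte and macrophage genes had 0 of 26 past the threshold and 21 of 26 negative, with Ctss at -0.44 ± 0.16 (0.145). Megakaryocyte and platelet genes had 0 of 24, 19 negative differences and a median of -0.18, with Pf4 at -1.06 ± 0.50 (0.322). At an unadjusted p under 0.05, 3 of them were higher and 5 lower, and differences ran from -1.21 to 0.61. Those with the smallest p were F2rl2 (-0.14 ± 0.05, 0.177) and Ppbp (-1.21 ± 0.46, 0.189). Erythroid genes had 0 of 23, 14 negative differences and a median of -0.027, with 0 higher and 1 lower at an unadjusted p under 0.05. Gata1 was at 0.020 ± 0.075 (0.944) and Klf1 at 0.33 ± 0.16 (0.338). Rhag, which had the smallest p of the list, was at -0.38 ± 0.15 (0.207). The erythroid list mean ran from 7.31 to 8.11 in Erg-high and from 7.41 to 8.19 in Erg-low spleens.

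Lymphoid lists were limited by how the spleens were selected. Of 27 T cell genes, Lat and Gata3 were lower, where 0.924% of all genes tested were. Gata3 was at a dim 5.15 ± 0.08 (SD) in Erg-high and 5.42 ± 0.24 in Erg-low spleens (limma adjusted p = 0.0264). The B cell, plasma cell, and cytotoxic and NK cell lists had 0 of 23, 0 of 12 and 0 of 19 past the threshold, with medians of -0.083, -0.023 and -0.026. Dendritic cell and MHC class II genes had 0 of 20. Differences were negative in 21 of 23 B cell, 7 of 12 plasma cell, 17 of 19 cytotoxic and NK cell, 19 of 27 T cell and 16 of 20 dendritic cell genes. Over all genes tested they were negative in 8637 of 18175. The part of these cell types in the lower interferon-stimulated genes was not tested.

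Endothelial genes, another place where Erg acts, gave 1 call in each direction among 30. Over all genes tested, 1.2% were higher and 0.924% lower. At an unadjusted p under 0.05, 7 of the 30 were higher and 2 lower, beside 8.81% and 5.96% over all genes tested. Sox18, an endothelial factor, was 5.60, 5.75 and 5.92 in Erg-high and 5.39, 5.55 and 5.65 in Erg-low spleens (0.21 ± 0.03, limma adjusted p = 0.00149). Tek, the angiopoietin receptor, was lower (-0.37 ± 0.09, 0.0305) and lost its call in 10 of 47 alternatives, 5 of them with 1 spleen left out. The defining markers Pecam1 (5.35 in Erg-high and 5.36 in Erg-low spleens, means) and Cdh5 (5.73 and 5.62) were near the floor and did not pass. Sox18 (5.76 and 5.55) and Tek (5.43 and 5.80) were near the floor too. Of the 30, 24 had a positive difference and the median was 0.045, beside 9538 of 18175 and 0.0021 over all genes tested.

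In the remaining lists few genes passed, where 1.2% of all genes tested were higher and 0.924% lower. JAK-STAT genes had Stat6 lower (-0.37 ± 0.08, limma adjusted p = 0.0111) and Stat5a higher (0.28 ± 0.07, 0.0402) of 28. Cdc20, which triggers chromosome separation, was higher by 0.27 ± 0.07 (0.0397) among 29 cell cycle genes. Pfkp, a glycolytic phosphofructokinase, was lower (-0.57 ± 0.15, 0.0447) among 23 hypoxia and glycolysis genes. Of these 23, 2 were higher and 8 lower at an unadjusted p under 0.05, beside 8.81% and 5.96% over all genes tested. Stat5a, Cdc20 and Pfkp lost their calls in 21, 28 and 30 of 48 alternatives. The mast cell, basophil and eosinophil list had Gata2 alone of 16. Spleen stroma, haem synthesis and iron, RAS and MAPK, leukaemia, and immediate early and heat shock genes had 0 calls among 27, 19, 24, 28 and 21. Their members with the smallest p, none past the threshold, were the stromal chemokine Cxcl13 (-0.33 ± 0.17, adjusted p = 0.366), the mitochondrial transporter Abcb10 (0.49 ± 0.17, 0.129) and the Rap activator Rasgrp2 (-0.46 ± 0.14, 0.0946). They also included the survival gene Bcl2 (-0.36 ± 0.18, 0.338) and the MAP kinase phosphatase Dusp1 (-0.50 ± 0.14, 0.0545).

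**Figure D4:**
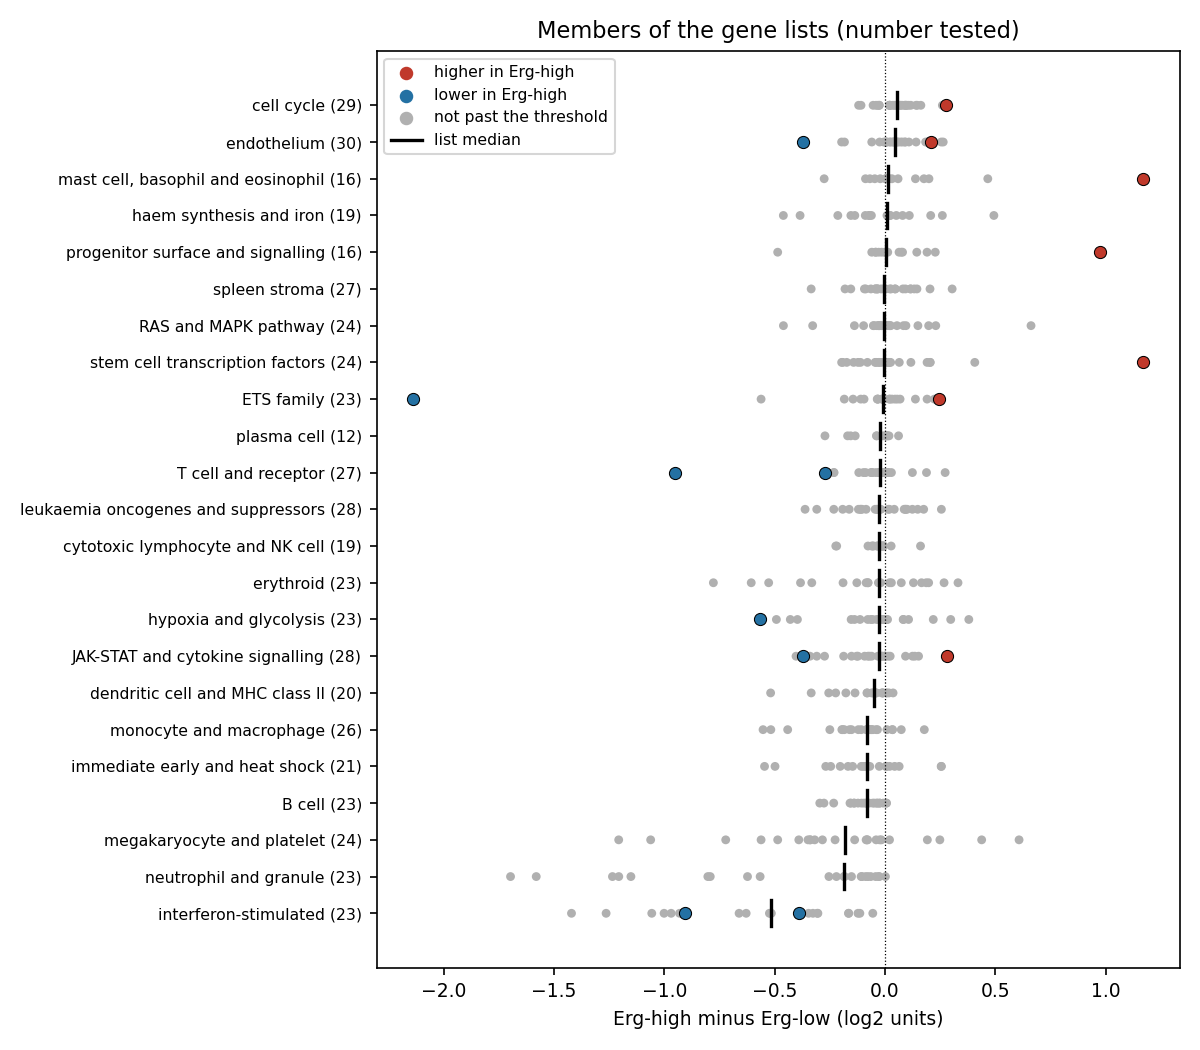
Each point is 1 tested member of a list, placed by its Erg-high minus Erg-low difference (log2 units), with red for higher, blue for lower and grey for genes that did not pass; black bars are list medians and the number tested follows each name. The interferon-stimulated list has the lowest median, -0.52, and the cell cycle list the highest, 0.056.

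Promoters of 3 genes that passed are printed to show where a GGAAGT match lies in them. They were picked because they hold it and after their results were known, so they do not show how often it occurs: Gabpa is the ETS gene that was higher, and Slfn2 and Laptm5 were lower. The sequences are from RefSeq (GRCm38.p6), run from 250 bases before to 50 after the gene start, and are given 5′ to 3′ on the gene's strand. Gabpa lies at chr16:84834874-84835173, Slfn2 at chr11:83064862-83065161 and Laptm5 at chr4:130913066-130913365, all on the plus strand, and capitals mark GGAAGT on either strand.
Gabpa: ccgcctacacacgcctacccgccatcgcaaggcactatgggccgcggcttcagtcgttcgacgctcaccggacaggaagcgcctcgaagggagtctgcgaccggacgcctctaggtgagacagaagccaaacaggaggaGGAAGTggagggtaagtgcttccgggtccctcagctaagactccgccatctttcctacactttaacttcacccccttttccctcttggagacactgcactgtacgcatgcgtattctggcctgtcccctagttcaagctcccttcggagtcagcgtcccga
Slfn2: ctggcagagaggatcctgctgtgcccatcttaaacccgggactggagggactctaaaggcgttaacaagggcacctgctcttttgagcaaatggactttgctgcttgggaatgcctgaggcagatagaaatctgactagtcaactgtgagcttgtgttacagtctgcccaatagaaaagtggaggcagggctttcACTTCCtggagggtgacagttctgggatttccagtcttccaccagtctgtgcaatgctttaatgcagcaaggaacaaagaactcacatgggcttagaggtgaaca
Laptm5: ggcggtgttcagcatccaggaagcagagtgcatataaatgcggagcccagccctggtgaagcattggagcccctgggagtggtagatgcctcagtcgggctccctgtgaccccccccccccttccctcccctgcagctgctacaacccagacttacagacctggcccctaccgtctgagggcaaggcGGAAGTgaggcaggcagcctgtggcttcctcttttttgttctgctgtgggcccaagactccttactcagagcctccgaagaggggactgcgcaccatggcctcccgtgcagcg

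Matches to ETS-type motifs were counted in the promoters of the called genes. In all 3 motifs were searched, on both strands, each contained in the longer ones. CCGGAAGT came first; it is in none of the 3 promoters above, and stood in 16 of 182 higher genes (8.79%), 8 of 141 lower genes (5.67%) and 955 of 14354 tested genes (6.65%) with a promoter. GGAA stood in 176 of 182 higher, 141 of 141 lower and 13815 of 14354 tested genes. GGAAGT was added last, after the counts for CCGGAAGT had been seen. It stood in 55 of 182 higher (30.2%), 55 of 141 lower (39%) and 4169 of 14354 tested genes (29%). The order of higher and lower genes was thus opposite for CCGGAAGT and GGAAGT, and GGAA had the order of GGAAGT. No test was made, so no conclusion is drawn from these counts. These counts are by gene, and a gene was counted if any of its promoter windows held the motif. Of all 32851 promoter windows, each counted singly, 3.89% held CCGGAAGT, 96% GGAA and 23.8% GGAAGT. Because the unit differs, these shares cannot be set against those by gene. Neither promoter window of Gata2 or of Emp3 held CCGGAAGT or GGAAGT.

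Other measurements of the same genes bore on the calls. Of the 387 genes, 235 had 1 or more further probe sets, 469 in all, and 424 of these differed in the same direction as the one used. Of the 469, 106 also passed in that direction and 0 passed in the opposite one. The difference between the sides was also compared between lines 6070 and 6113: for this interaction limma passed 0 of 18175 genes, with 1027 at an unadjusted p under 0.05 and a smallest adjusted p of 0.479. The comparison rests on the line label and on few spleens per line and side. Because Xist put the pairing of labels with arrays in doubt, it cannot decide whether the lines differ.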

How the data were processed

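The authors deposited 1 log2 value per probe set and array. These came from RMA (affy, R 2.15, per the submitters' processing notes), a method that corrects background, brings the arrays to a common distribution and combines the probes of a set. Scanner files are not used here, and the genome build of the array annotation is not given in the sources used here. Precision is set by how many mice each side holds.

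Of 45101 probe sets, 64 controls were left out; 34945 named 1 gene, 932 several and 9160 none in the platform annotation. For each of 18193 genes the single-gene probe set of highest mean over 47 arrays was used, and for Erg the brighter one. A gene entered the test if it exceeded log2 5 in 9 or more arrays, and Erg, Vpreb1 and Cd3d were kept out, which left 18175. The sides were compared with limma 3.58.1 (R 4.3.3; lmFit, eBayes, Benjamini-Hochberg), and single values with permutation tests of 100000 resamples. The fit was tested on simulated data.

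Members, 23 gene lists (557 genes) and tests were chosen with earlier results of these data known. Genes named were the 12 largest differences past the threshold in each direction, up to 4 called members of each list or the 2 with smallest p, and a set list around Erg; others, among them Rsad2, Usp18, S100a8 and Pf4, were chosen after their values were seen. In all, 21 alternatives, 2 added after seeing the data, and each spleen left out in turn were tried. RefSeq promoters of GRCm38.p6 were matched by gene number. Of 3 promoter motifs, the last was added after counts for the first had been seen.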

Additional observations from a re-analysis of the deposited data

Results flagged for a closer look

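In 16 of 97 sets of 10 Erg-low values, 1 per gene named, the highest or lowest spleen stood apart from the rest of its side by Dixon's test on the gap to the next value. Chance flags about 1 in 20 such sets, and the genes are not independent.

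The spleen without an insertion label that is replicate 21, with Erg at 6.86, was the lowest Erg-low spleen for 7 of these genes. It had Mndal at 5.74, Anp32a at 5.92, Laptm5 at 7.15, Lcp2 at 5.76, Lyl1 at 6.64, Slfn2 at 5.97 and Pf4 at 6.25. Replicate 8 of that label group had the lowest Hacd1, 5.73, and replicate 20 the highest Bcl2, 7.37.

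Among spleens with the insertion label, replicate 23 had the lowest Lmo2, 8.87, the lowest Klf1, 7.69, the lowest Gabpa, 6.77, and the highest Vasp, 8.16. Replicate 15 had the highest Gnaq, 6.67, and the highest Rasgrp2, 7.32. Replicate 21 of that label group had the lowest Hnrnpul2, 7.14.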

How the results depend on the processing

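No paired analysis was possible because no label links a spleen of one side to a spleen of the other; replicate numbers only name spleens. Main counts were 219 higher and 168 lower. They were 0 and 0 with Erg divided at 7.5, 498 and 323 with Erg as a continuous value, 372 and 261 with the lymphoid limit at 7.5, 2362 and 1265 over all 47 arrays, and 410 and 314 with the Erg-low side at or below 6, the last chosen after seeing the data. Only the lower count moved past 1.5 times with the lymphoid limit at 6.5 (291) and with array weights (354), and only the higher count without the 4 arrays of median correlation under 0.97 (123, chosen after seeing the data). With 1 spleen left out, higher counts ran from 102 to 400 and lower counts from 92 to 349. The causes were not tested.

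Among the 97 genes named, those that changed sign had not passed. Of all 387 genes that passed, 385 kept their direction with Erg divided at 7.5 and 381 over all 47 arrays. At 7.5, Tal1 was 0.23, Hoxa9 -0.014, Kit -0.010, Pecam1 0.023, Tfr2 -0.0033, Xbp1 0.021, Bmi1 -0.013 and Pf4 0.42. Over all 47 arrays Tal1 was 0.50, Lyl1 0.25, Gfi1b 0.32, Rhag 0.078 and Spred1 -0.12. Gata1 was -0.018 and -0.025 with lymphoid limits of 6.5 and 7.5, -0.14 over 47 arrays with Vpreb1 and Cd3d as covariates (Tie1 -0.0063), -0.0097 with the insertion label, -0.024 with array weights, -0.014 after renewed quantile normalization and -0.0082 without the 4 arrays. Pecam1 was 0.00076 with the tumour number as a block, 0.0041 after renewed normalization and 0.0041 without the 4 arrays. With 1 spleen left out, Gata1 ran from -0.019 to 0.053, Hoxa9 ran from -0.0084 to 0.021, Pecam1 ran from -0.025 to 0.020. The share of line 6070 differed by -3.51 percentage points at 6.5, that of labelled females by 21.4 at 7.5, and the 3′ minus 5′ difference by 0.064 at 6.5 and 0.12 at 7.5.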
